A study of Sus scrofa with 32 samples.

Results

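The 5 genes MYH11, CNN1, DES, SYNM and PGM5 of the muscle contractile and cytoskeletal machinery are described here across 3 tissues of obese and lean pigs. The members are all 9 probe sets, of 14327 in the deposited table, whose symbol is one of these 5 in the pig-to-human symbol file of the authors (AnexDB). MYH11 has the probe sets Ssc.10392.1.A1_at and Ssc.9452.1.S1_at, CNN1 has Ssc.9013.1.S1_at and DES has Ssc.24.1.S1_at. SYNM has Ssc.10920.1.S1_a_at and Ssc.23294.1.S1_at, and PGM5 has Ssc.27727.1.S1_at, Ssc.28465.1.S1_at and Ssc.27727.2.S1_a_at. A platform annotation names 4 of the 9 probe sets, each with the same symbol, except that Ssc.10920.1.S1_a_at is listed there under both SYNM and MYOZ2.

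Juvenile Ossabaw miniature pigs, 22 weeks old when sampled, were compared in 3 tissues. LAD is the coronary artery that runs down the front of the heart (left anterior descending), PVAT is the fat around that vessel, and TA is the thoracic aorta in its descending stretch. Obese pigs had eaten feed rich in fat, fructose corn syrup and cholesterol for 16 weeks, and lean pigs a low-fat commercial feed for the same time. The groups were obese LAD (5 arrays), lean LAD (6), obese PVAT (5), lean PVAT (6), obese TA (5) and lean TA (5), 32 Affymetrix arrays from 11 pigs, with 1 array per pig and tissue and no TA array for lean pig 63. Replicates were separate animals. Surrounding fat and surplus adventitia had been dissected off both arteries. RNA was isolated with one kit from the arteries and another from the fat, so tissue and kit cannot be told apart where PVAT is set against an artery.

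Smooth muscle cells shorten by sliding actin past smooth muscle myosin. MYH11 is the heavy chain of that myosin and is the classical marker of the differentiated contractile cell, and CNN1 (calponin) is an actin-binding protein that restrains the myosin motor. DES (desmin) is the muscle intermediate filament protein, and SYNM (synemin) is a large intermediate filament protein that forms mixed filaments with desmin or vimentin and ties them to the cell's attachment sites. PGM5 (aciculin) is related to phosphoglucomutase but is known as a structural protein of adhesion plaques, where it binds members of the dystrophin family. Desmin, synemin and aciculin are also made by heart and skeletal muscle, whereas MYH11 and CNN1 are mainly smooth muscle products. In whole-tissue RNA, fewer cells of a type and less RNA per cell cannot be told apart.

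All values are the deposited log2 expression values. Of the 9 probe sets, 8 were tested, and the MYH11 probe set Ssc.9452.1.S1_at was not, because its mean of 7.29 fell below the level of 7.69 under which the lowest 30% of probe sets lay. The tissue labels were checked against markers. The mean of 10 measured adipocyte markers lay between 9.13 and 11.51 on the PVAT arrays, between 7.86 and 8.87 on the LAD arrays and between 7.38 and 8.47 on the TA arrays. The mean of 5 other smooth muscle markers lay between 11.33 and 12.25 on PVAT arrays, between 13.04 and 13.53 on LAD arrays and between 12.18 and 13.49 on TA arrays. The mean of 22 measured heart muscle markers, from which MYOZ2 was left out because its probe set is listed under SYNM and MYOZ2 in the platform annotation, ran from 6.53 to 12.22 on PVAT arrays and from 7.62 to 12.08 on LAD arrays, against 6.33 to 7.20 on TA arrays. The 28S/18S ratio of the RNA, a measure of its integrity, was below 0.8 in 2 obese arrays of each tissue and in no lean array.

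Of the TA arrays, that of obese pig 57 was unlike the 9 others. The tissue and diet differences of the members in TA are given with and without it. Its median correlation with them over 10029 tested probe sets was 0.675, against a lowest value of 0.924 between any pair of the others, and 817 probe sets differed from their mean by more than 2 log2 units. Its median correlation was 0.675 with the LAD arrays and 0.699 with the PVAT arrays. Among the members, DES was at 11.05 on it, against 7.31 to 8.89 on the other TA arrays. MYH11 (Ssc.10392.1.A1_at) was at 13.25 against 14.17 to 14.42, CNN1 at 11.78 against 13.14 to 13.49, and PGM5 (Ssc.27727.1.S1_at) at 12.03 against 12.92 to 13.27. The 28S/18S ratio of this sample was 2.14, the highest of the 32.

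**Figure D1:**
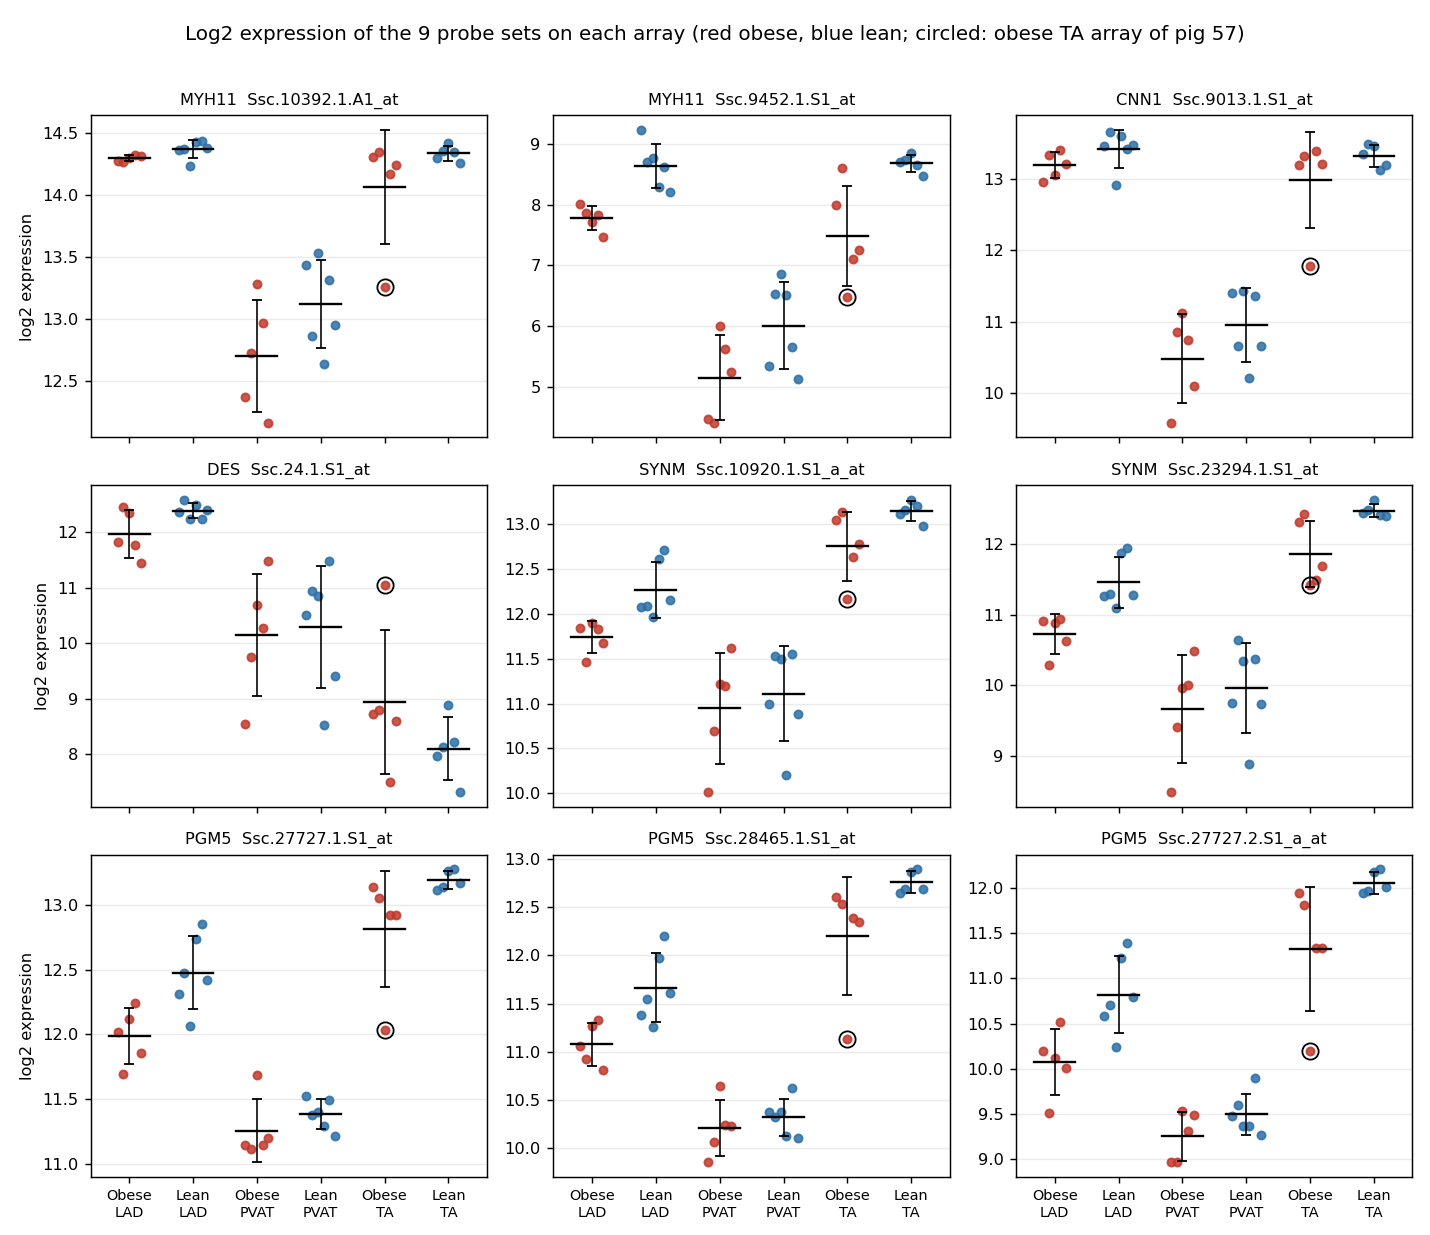
Log2 expression of each of the 9 probe sets (1 panel each, own vertical scale) in the 6 groups. Points are arrays (red obese, blue lean), horizontal bars are group means, whiskers are 1 SD, and the circled point is the obese TA array of pig 57. DES is high in LAD, intermediate in PVAT and low in TA, while SYNM and PGM5 are highest in TA and lowest in PVAT, and MYH11 and CNN1 are near each other in both arteries.

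The tissues were compared first. A single limma fit of all 6 groups gave each tissue difference as the mean of the obese and the lean difference, and a probe set passed at a Benjamini-Hochberg adjusted p under 0.05 over 10029 probe sets. The 3 tissue comparisons share arrays, so they are not independent of each other. Members were chosen with earlier results of these data known, so a count of members above the background share may come partly from that choice.

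Between the arteries the 5 genes went 3 ways. MYH11 and CNN1 did not pass the test, DES was far higher in LAD, and SYNM and PGM5 were lower in LAD. Of the 8 tested probe sets, 6 passed, against 24.5% of all tested probe sets, with 1 higher (background 14.4%) and 5 lower (background 10.1%) in LAD than in TA.

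MYH11 (Ssc.10392.1.A1_at) read 14.27, 14.28, 14.30, 14.31 and 14.32 in the obese LAD arrays and 14.23, 14.38 and 14.43 as the lowest, median and highest of the lean LAD arrays. In TA it read 13.25, 14.17, 14.24, 14.31 and 14.35 in obese pigs and 14.26, 14.29, 14.34, 14.35 and 14.42 in lean pigs. Apart from the pig 57 TA array, all artery values lay within 14.17 to 14.43, close to 14.52, the highest value in the whole table. The LAD minus TA difference was 0.13 (SE 0.13, limma adjusted p = 0.512), and 0.03 without the pig 57 TA array. Whether the array can read this probe set any higher was not tested, so the size of this difference is uncertain. CNN1 averaged 13.20 ± 0.19 in obese and 13.42 ± 0.26 in lean LAD, and 12.98 ± 0.67 in obese and 13.33 ± 0.16 in lean TA (SD, n = 5, 6, 5 and 5). Its difference was 0.16 (SE 0.19, limma adjusted p = 0.610), and 0.01 without the pig 57 TA array, so the levels of both motor-associated genes in the arteries overlapped throughout.

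Desmin separated the arteries completely. DES read 11.44, 11.77, 11.82, 12.34 and 12.46 in the obese LAD arrays and 12.23, 12.38 and 12.58 as the lowest, median and highest of the lean LAD arrays. In TA it read 7.50, 8.60, 8.72, 8.80 and 11.05 in obese pigs and 7.31, 7.96, 8.12, 8.22 and 8.89 in lean pigs. Every LAD array was above every TA array, the pig 57 array included, and LAD was higher within each of 10 pigs with both arteries, by 1.29 to 5.08. The difference was 3.66 (SE 0.36, a fold of 12.6, limma adjusted p = 5.17e-09), and only 0.179% of all tested probe sets had a larger positive one. Without the pig 57 TA array it was 3.92. On average it was 3.14, 3.76 and 3.96 within the 3 sacrifice dates.

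Heart muscle markers also differed between the arteries. Of 21 tested ones 16 rose (background 14.4%) and 1 fell (background 10.1%) in LAD relative to TA. TNNT2, cardiac troponin T, averaged 10.16 in obese and 9.04 in lean LAD, against 3.65 in obese and 3.65 in lean TA (limma adjusted p = 9.12e-06). With the heart marker mean of each array as a covariate, the DES difference was 2.78 and still passed. That covariate had a single slope for all tissues. The TA marker means, 6.33 to 7.20, lay below those of every LAD array, 7.62 to 12.08, so the adjustment reaches beyond the values the arteries share. In LAD, DES did not follow the heart markers across pigs (r = 0.02, n = 11), as described further on. The part of heart muscle RNA in the DES difference between the arteries was not tested.

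Synemin and aciculin differed in the direction opposite to desmin. SYNM (Ssc.10920.1.S1_a_at) averaged 11.74 ± 0.18 in obese and 12.27 ± 0.31 in lean LAD, and 12.76 ± 0.38 in obese and 13.15 ± 0.11 in lean TA. The LAD minus TA difference was -0.95 (SE 0.17, limma adjusted p = 8.85e-05) for that probe set and -1.07 (SE 0.21, limma adjusted p = 1.98e-04) for Ssc.23294.1.S1_at, about a factor of 2 in signal (1.93 and 2.10). Both were lower in LAD in each of 10 pigs.

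PGM5 (Ssc.27727.1.S1_at) averaged 11.99 ± 0.22 in obese and 12.48 ± 0.28 in lean LAD, and 12.81 ± 0.45 in obese and 13.19 ± 0.07 in lean TA. The differences were -0.77 (SE 0.11), -1.11 (SE 0.14) and -1.25 (SE 0.17) for Ssc.27727.1.S1_at, Ssc.28465.1.S1_at and Ssc.27727.2.S1_a_at, with limma adjusted p-values of 3.70e-06, 5.65e-07 and 9.76e-07. Of 10 pigs, 9, 9 and 10 had the lower value in LAD, and the exception was pig 57. Without its TA array the differences of PGM5 were -0.87, -1.24 and -1.39 and those of SYNM -1.02 and -1.13. Mean differences of SYNM and PGM5 were negative within each of the 3 sacrifice dates. The order TA, LAD, PVAT held for both genes in group means, and every lean TA array was above every LAD array of either diet for these 5 probe sets, while obese TA arrays overlapped with LAD.

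**Figure D2:**
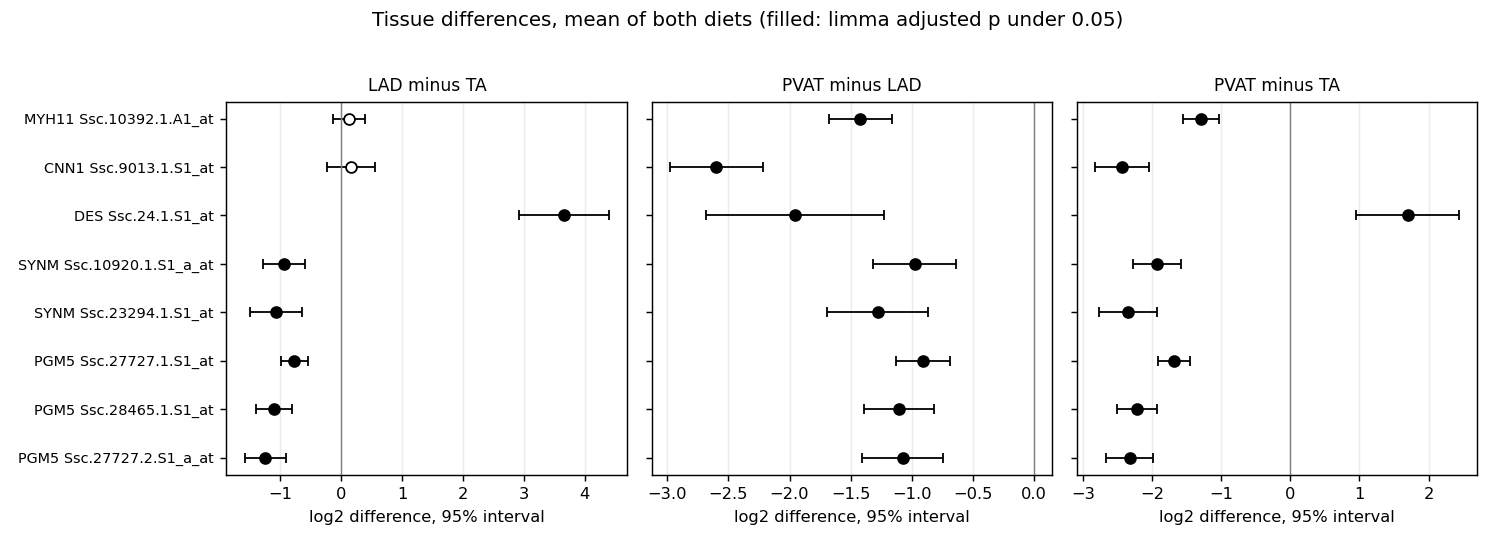
Tissue differences of the 8 tested probe sets in log2 units (points) with 95% intervals (bars), from left to right LAD minus TA, PVAT minus LAD and PVAT minus TA, each with its own horizontal scale. Filled points passed at a limma adjusted p under 0.05. DES lies at 3.66 in the first panel, where SYNM and PGM5 lie between -0.77 and -1.25 and the open points are MYH11 and CNN1.

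In PVAT all 8 tested probe sets were lower than in LAD, against 32.4% of all tested probe sets that passed as lower, 24.2% as higher and 56.6% in either direction. The median difference of the 8 was -1.19, against -0.04 over all tested probe sets. CNN1 read 9.58, 10.10, 10.74, 10.86 and 11.12 in the obese PVAT arrays and 10.21, 11.01 and 11.42 as the lowest, median and highest of the lean PVAT arrays, so every PVAT array was below every LAD array. It fell by 2.60 in PVAT relative to LAD (SE 0.19, a fold of 6.06, limma adjusted p = 4.00e-12). MYH11 (Ssc.10392.1.A1_at) fell by 1.42 (SE 0.13, limma adjusted p = 2.46e-10), with PVAT values between 12.16 and 13.53 and no overlap with LAD. Its LAD values lay close to the highest value in the table, and whether the array can read this probe set any higher was not tested, so the size of this difference is uncertain.

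The untested MYH11 probe set Ssc.9452.1.S1_at ran from 4.41 to 6.86 in PVAT and from 7.47 to 9.23 in LAD, also without overlap. Its PVAT means of 5.15 (obese) and 6.01 (lean) lay below 6.64, the log2 of an intensity of 100, so no fold is given. DES fell by 1.96 (SE 0.36, limma adjusted p = 3.62e-05), and 1 of 11 pigs had the slightly higher value in PVAT. SYNM fell, at -0.98 and -1.28, and so did PGM5, at -0.91, -1.11 and -1.08 (Ssc.27727.1.S1_at, Ssc.28465.1.S1_at, Ssc.27727.2.S1_a_at), lower in 11 of 11 pigs for each probe set.

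Relative to TA, 7 of the 8 tested probe sets were lower in PVAT (background 32.9%) and DES was higher (background 26.9%), with 59.7% of all tested probe sets passing in either direction. PGM5 fell, at -1.68, -2.21 and -2.33, and SYNM, at -1.92 and -2.35, with every PVAT array below every TA array for each of these 5 probe sets, also against the pig 57 TA array. CNN1 fell, at -2.44, and MYH11, at -1.29. Without the pig 57 TA array the differences were -1.78, -2.35 and -2.47 (PGM5), -1.997 and -2.41 (SYNM), -2.59 (CNN1), -1.39 (MYH11) and 1.96 (DES). DES differed by 1.70 (SE 0.36, a fold of 3.25, limma adjusted p = 2.30e-04), and was the higher in PVAT in 7 of 10 pigs, with overlapping ranges of 8.53 to 11.48 in PVAT and 7.31 to 11.05 in TA. With the heart marker mean as a covariate the DES difference was 0.52 and no longer passed (limma adjusted p = 0.425).

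Heart muscle markers moved with the filament genes in the fat. Within PVAT, DES and SYNM followed the heart muscle marker mean of the same array almost in rank order. DES read 8.53 on the array with the lowest marker mean of 6.53 (lean pig 73), 8.55 at 8.61 (obese pig 51) and 9.41 at 9.60 (lean pig 86). It read 11.48 on each of the arrays with marker means of 12.03 (lean pig 80) and 12.22 (obese pig 85). Across the 11 PVAT arrays Pearson's r was 0.93 and Spearman's rho 0.97 (permutation p adjusted over 54 relations 0.00054 and 0.00027 by Benjamini-Hochberg, from raw values of 1e-05, the smallest that 100000 resamples can give), and r was 0.93 without the 2 arrays farthest from the median marker mean. The part of heart muscle RNA in the PVAT levels was not tested.

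For the SYNM probe sets Ssc.10920.1.S1_a_at and Ssc.23294.1.S1_at r was 0.90 and 0.87 (permutation p adjusted over the same family 0.006 and 0.013), and 0.86 and 0.81 without the 2 farthest arrays. CNN1 had r of 0.52, MYH11 (Ssc.10392.1.A1_at) 0.31 and the 3 PGM5 probe sets 0.27 to 0.57, and none of these 5 passed. Without the 2 farthest arrays r of CNN1 was -0.08 and that of MYH11 -0.19. The 3 sacrifice dates hold 4, 2 and 5 pigs, too few for a correlation within a date. The 54 relations are 9 probe sets in 3 tissues against the heart marker mean and against the 28S/18S ratio. None of the relations with the 28S/18S ratio passed over all arrays of a tissue, and the smallest permutation p of r adjusted over the 54 was 0.119. In TA these values depended on the pig 57 array. Without it r with the ratio was 0.80 to 0.91 for PGM5, 0.83 and 0.90 for SYNM and 0.89 for MYH11 Ssc.9452.1.S1_at (n = 9), against -0.43 to -0.25, -0.19 and 0.15, and 0.04 with it. Without the 2 farthest of those 9 arrays r was 0.24 to 0.29 for PGM5, -0.10 and -0.18 for SYNM and 0.12 for that MYH11 probe set. The 2 were those of obese pigs 81 and 85, with ratios of 0.61 and 0.57. The ratios left ran only from 1.17 to 1.54, so these last values cannot show a relation with low ratios.

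In LAD 8 of the 9 probe sets had a negative r with the heart marker mean, and 1 passed. CNN1 was lower where heart markers were higher (r = -0.75, rho = -0.69, permutation p adjusted over 54 relations 0.036 for r and 0.102 for rho), and r was -0.70 without the 2 farthest arrays. MYH11 (Ssc.10392.1.A1_at) had r of -0.71 (permutation adjusted p = 0.066), and its lowest LAD value, 14.23, came from lean pig 63, the LAD array with the highest heart marker mean, 12.08. The other MYH11 probe set, Ssc.9452.1.S1_at, had r of -0.04. DES had r of 0.02, the SYNM probe sets -0.39 and -0.40 and the PGM5 probe sets -0.45 to -0.56. In TA the heart marker means spanned 6.33 to 7.20 and the pig 57 array had the lowest. Across the 10 TA arrays r ran from 0.73 to 0.97 for the 8 probe sets other than DES (permutation p adjusted over the 54 relations 0.013 to 0.022), and DES had -0.82 (adjusted p = 0.141 by the same permutation test). By rank, 5 of the 8 passed, with rho from 0.81 to 0.85 (permutation p adjusted over the 54 relations 0.026 to 0.0496). Without the pig 57 array r ran from 0.61 to 0.72, with DES at -0.06, and without the 2 farthest arrays, of which pig 57 is one, from 0.43 to 0.61, with DES at 0.18. With the pig 57 array left out and the diet means taken out, r ran from 0.33 to 0.66, with DES at 0.19.

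**Figure D3:**
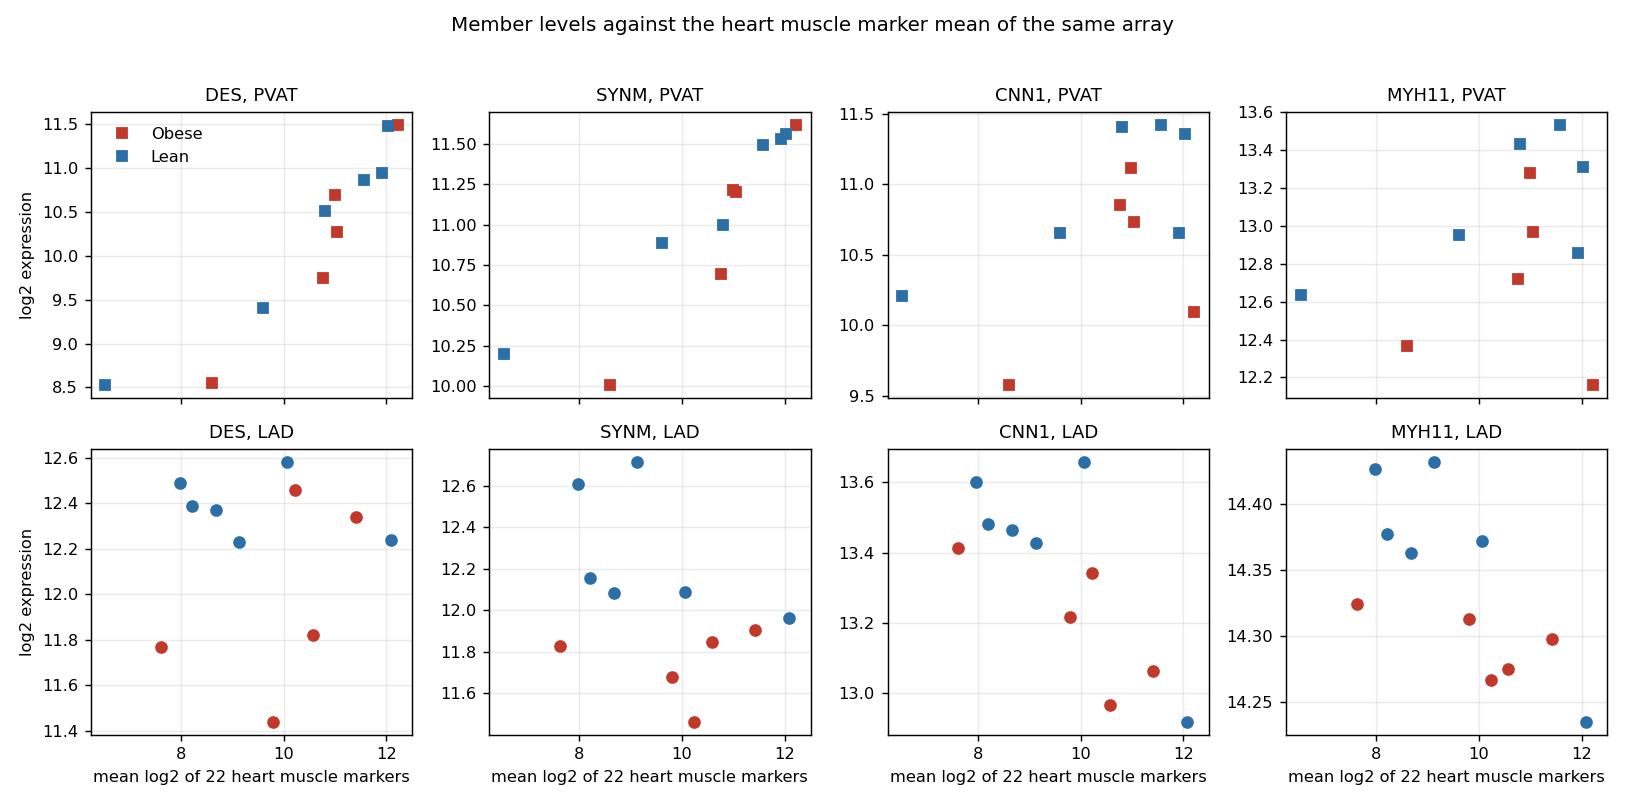
Log2 expression of DES, SYNM (Ssc.10920.1.S1_a_at), CNN1 and MYH11 (Ssc.10392.1.A1_at) against the mean log2 level of 22 heart muscle markers on the same array, in PVAT (upper row, squares) and LAD (lower row, circles), with obese pigs in red and lean pigs in blue. In PVAT the points of DES and SYNM climb together with the markers (r of 0.93 and 0.90, n = 11), while in LAD those of CNN1 and MYH11 descend (r of -0.75 and -0.71, n = 11).

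Diet was compared within each tissue by its own limma fit. In LAD every tested probe set had a lower mean in obese than in lean pigs, with a median difference of -0.51 log2 units, against -0.06 over all tested probe sets. None of the 8 passed the adjusted threshold, and neither did any probe set of the table in that direction (0.0399% of tested probe sets passed, all higher). By the unadjusted limma p, 6 of the 8 were lower at under 0.05, against 11.7% of all tested probe sets. These were the SYNM and PGM5 probe sets and DES. Probe sets of the same gene are not independent, with r of 0.92 to 0.97 within SYNM and within PGM5 after the group means were taken out. An exact permutation test of the diet labels gave an unadjusted p under 0.05 for 6 of the 9 probe sets, all lower in obese LAD. Of all 14327, 10.4% were lower by the same test and 15.2% passed in either direction. Because the members were chosen with earlier results of these data known, their excess over background may come partly from that choice. The same limit holds for the member counts in the diet comparisons below.

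Both member probe sets of SYNM separated the diets in LAD. SYNM (Ssc.23294.1.S1_at) read 10.28, 10.62, 10.89, 10.91 and 10.94 in obese LAD, and 11.10, 11.28 and 11.95 as the lowest, median and highest in lean LAD. All 5 obese arrays were below all 6 lean arrays, for this probe set and for Ssc.10920.1.S1_a_at, which read 11.46, 11.68, 11.83, 11.85 and 11.90 in obese LAD and 11.96, 12.12 and 12.71 as the lowest, median and highest in lean LAD. The differences were -0.73 (SE 0.18, limma adjusted p = 0.140) and -0.52 (SE 0.15, limma adjusted p = 0.172). The two-sided exact permutation p was 0.00433 for both, the smallest that 5 against 6 arrays can give.

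The untested MYH11 probe set Ssc.9452.1.S1_at also separated the diets, with 7.47, 7.72, 7.82, 7.87 and 8.01 in obese LAD and 8.20, 8.66 and 9.23 as the lowest, median and highest in lean LAD. Its difference was -0.86, and in a fit with no filter the limma adjusted p was 0.134. The other MYH11 probe set, Ssc.10392.1.A1_at, differed by -0.07 (SE 0.05, limma adjusted p = 0.492), so the 2 probe sets of this gene did not give the same size of difference. LAD values of Ssc.10392.1.A1_at lay close to the highest value in the table. Whether the array can read it any higher was not tested, so the size of its diet difference is uncertain. In all, 3 of 9 probe sets had every obese LAD array below every lean one, against 1.23% of all 14327. Of the 8 tested ones 2 did so, both of SYNM, against 1.43% of the tested. These counts too may come partly from the choice of members with earlier results known.

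PGM5 was lower in obese LAD on average but its groups overlapped. Ssc.27727.2.S1_a_at read 9.51, 10.01, 10.11, 10.20 and 10.52 in obese LAD and 10.24, 10.75 and 11.39 as the lowest, median and highest in lean LAD, so 1 obese array exceeded the lowest lean array. The differences of Ssc.27727.1.S1_at, Ssc.28465.1.S1_at and Ssc.27727.2.S1_a_at were -0.49 (SE 0.14), -0.58 (SE 0.17) and -0.75 (SE 0.22), with limma adjusted p-values of 0.179, 0.176 and 0.176. Only 0.249% of tested probe sets had a more negative difference than Ssc.27727.2.S1_a_at. DES differed by -0.42 (SE 0.17, limma adjusted p = 0.245) and CNN1 by -0.22 (SE 0.13, limma adjusted p = 0.396).

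The LAD differences of SYNM and PGM5 had the same sign within each sacrifice date. For SYNM Ssc.23294.1.S1_at they were -0.61, -0.35 and -0.92, and for PGM5 Ssc.27727.2.S1_a_at -0.66, -0.38 and -0.87. Those of DES were -0.01, -0.55 and -0.77. The dates hold 2 obese and 2 lean, 1 and 1, and 2 and 3 pigs. RNA integrity differed too: obese pigs 55 and 57 had LAD ratios of 0.69 and 0.63, against 1.13 to 1.43 in lean LAD. These were both obese LAD arrays of the first date, so diet and RNA integrity cannot be told apart within it. Without these 2 arrays the SYNM differences were -0.63 and -0.48 and the PGM5 differences -0.44 to -0.60, none passing. For DES the same 2 arrays held the highest obese LAD values, 12.46 and 12.34. In LAD r of DES with the ratio was -0.39, and -0.84 after the diet means were taken out. That of SYNM and PGM5 was then 0.19 to 0.58.

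Macrophage markers differed between the diets in the same arrays. All 10 tested ones had higher means in obese LAD, and C1QA, a subunit of complement C1q, passed (1.61, limma adjusted p = 0.0482). The mean of the 11 measured ones ran from 9.59 to 11.24 in obese LAD against 8.54 to 9.31 in lean LAD. The part of macrophage content in the lower SYNM, PGM5 and DES values was not tested. Heart marker means overlapped, at 7.62 to 11.42 in obese and 7.97 to 12.08 in lean LAD, and with that mean as a covariate the SYNM differences were -0.68 and -0.49. With array weights in the fit, 2 of the 8 passed, both lower, against 0.479% of all tested probe sets that passed as lower and 1.16% in either direction, DES at -0.69 (limma adjusted p = 0.0417) and SYNM Ssc.23294.1.S1_at at -0.81 (limma adjusted p = 0.0496).

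**Figure D4:**
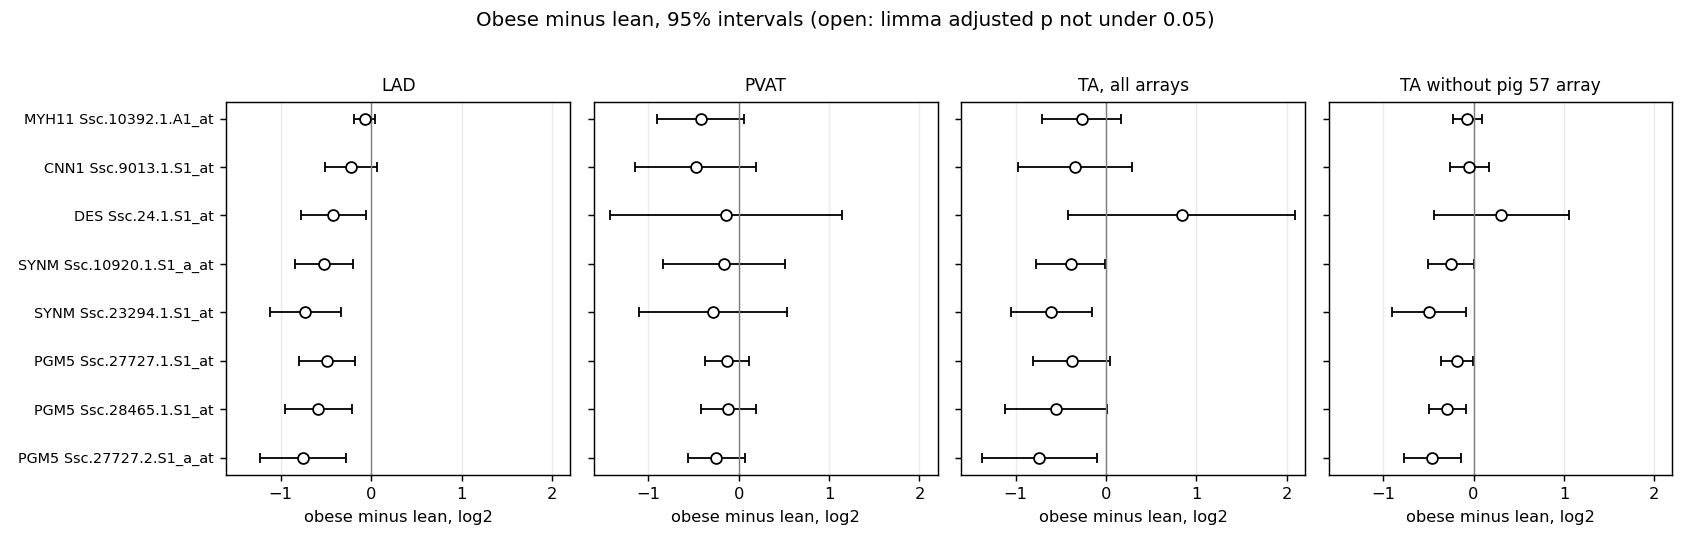
Obese minus lean differences in log2 units (points) with 95% intervals (bars) for the 8 tested probe sets in LAD, PVAT, TA and TA without the array of pig 57, on a common horizontal scale. All points are open because none passed at a limma adjusted p under 0.05. In LAD all 8 lie below 0, between -0.07 and -0.75, and in TA the DES point lies at 0.84 with the pig 57 array and at 0.31 without it.

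In TA none of the 8 passed, nor did any other probe set (0% of 10029). At the unadjusted limma p under 0.05, 3 of the 8 were lower in obese TA, against 3.52% of the tested, and by the exact permutation test 6 of the 9 were lower at an unadjusted p under 0.05, against 5.59% of all 14327 (9.83% in either direction). Without the pig 57 array 5 of the 9 were, against 5.16% (9.46% in either direction). As in LAD, the excess of members over these shares may come partly from their choice with earlier results known. PGM5 Ssc.28465.1.S1_at read 11.13, 12.35, 12.39, 12.53 and 12.61 in obese TA and 12.65, 12.69, 12.69, 12.87 and 12.89 in lean TA. PGM5 Ssc.27727.2.S1_a_at read 10.20, 11.34, 11.34, 11.81 and 11.95 in obese TA and 11.95, 11.97, 12.01, 12.18 and 12.21 in lean TA. For these 2 probe sets every obese array was below every lean array, with and without pig 57, against 1.6% of tested probe sets with it and 2.29% without it. The highest obese and the lowest lean value of Ssc.27727.2.S1_a_at were both 11.95 after rounding. The two-sided exact permutation p was 0.00794 for both, the smallest that 5 against 5 arrays can give, and 0.0159 without pig 57.

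The PGM5 differences in TA were -0.38, -0.56 and -0.74 (Ssc.27727.1.S1_at, Ssc.28465.1.S1_at, Ssc.27727.2.S1_a_at), and -0.18, -0.29 and -0.46 without the pig 57 array (limma adjusted p between 0.273 and 0.443). Those of SYNM were -0.39 and -0.61, and -0.25 and -0.50 without it. For PGM5 Ssc.27727.2.S1_a_at the difference within sacrifice dates was -0.96, -0.0036 and -0.80, and without pig 57 the first was -0.15. The dates hold 2 obese and 1 lean, 1 and 1, and 2 and 3 TA arrays, and the first holds 1 and 1 without pig 57. Both obese TA arrays of the third date, of pigs 81 and 85, had low 28S/18S ratios of 0.61 and 0.57. Diet and RNA integrity cannot be told apart within that date. DES was the single member with a positive difference, 0.84 (SE 0.56, limma adjusted p = 0.704), and 0.31 without the pig 57 array. MYH11 (Ssc.10392.1.A1_at) and CNN1 differed by -0.27 and -0.35, and by -0.07 and -0.05 without it, and the untested MYH11 Ssc.9452.1.S1_at by -1.19, and by -0.94 without it. Apart from pig 57, TA values of Ssc.10392.1.A1_at also lay close to the highest in the table. The size of its diet difference in TA is therefore uncertain.

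RNA integrity differed among the obese TA arrays. Obese pigs 85 and 81 had TA ratios of 0.57 and 0.61, against 1.17 to 1.54 in lean TA. They read 11.68 and 11.49 for SYNM Ssc.23294.1.S1_at, 11.34 and 11.34 for PGM5 Ssc.27727.2.S1_a_at, and 7.26 and 7.10 for MYH11 Ssc.9452.1.S1_at. Obese pigs 51 and 55, with ratios of 1.28 and 1.29, read 12.31 and 12.42, 11.95 and 11.81, and 7.996 and 8.60 for the same probe sets, against lean TA values of 12.40 to 12.62, 11.95 to 12.21 and 8.47 to 8.86. Of these 6 readings, the 2 of pig 55 for SYNM and MYH11 lay within the lean range and the other 4 below it. The pig 57 array, with a ratio of 2.14, read 11.42, 10.20 and 6.48 for them. The part of RNA integrity in these TA differences was not tested.

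Endothelial markers differed between the diets in the same TA arrays. All 10 tested ones had higher means in obese TA, with 6 at an unadjusted limma p under 0.05, among them PLVAP at 0.93, PECAM1 at 0.95, VWF at 1.09 and TEK at 1.22, and none passed (limma adjusted p of 0.219 for PLVAP). The share of all tested probe sets that were higher at that unadjusted threshold was not counted, so the 6 cannot be set against a background. Without the pig 57 array 1 of the 10, PLVAP, passed, and the share of all tested probe sets that passed there is not given here. The mean of the 11 measured ones was 7.62 (pig 57), 7.996 (pig 51), 8.18 (pig 55), 8.63 (pig 81) and 8.91 (pig 85) in obese TA, against 7.25 to 7.83 in lean TA. The highest of these came from pigs 85 and 81, whose arrays also had the low ratios and the low SYNM and PGM5 readings. The part of endothelial content in the TA differences was not tested.

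**Figure D5:**
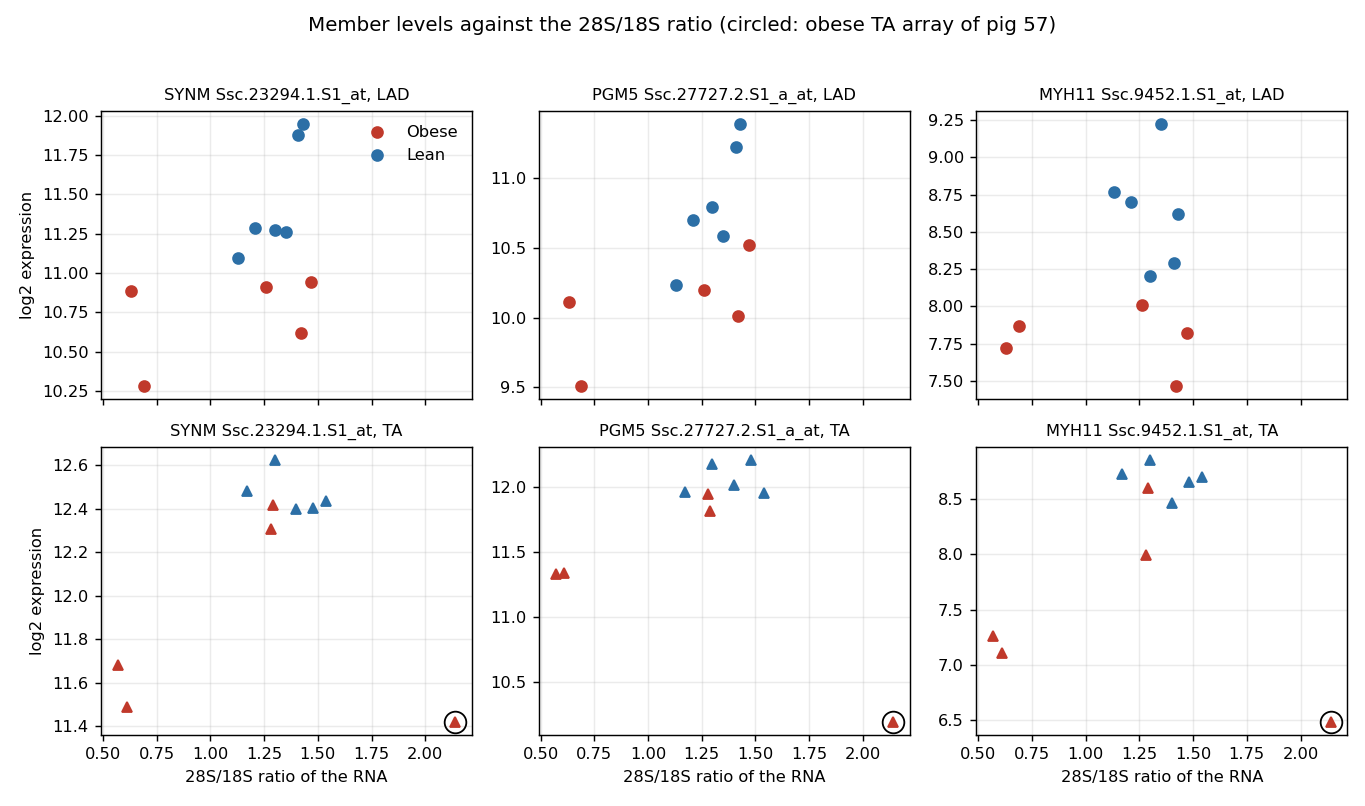
Log2 expression of SYNM (Ssc.23294.1.S1_at), PGM5 (Ssc.27727.2.S1_a_at) and MYH11 (Ssc.9452.1.S1_at) against the 28S/18S ratio of each RNA in LAD (upper row, circles) and TA (lower row, triangles), with obese pigs in red and lean pigs in blue and the obese TA array of pig 57 circled. In TA the 2 obese arrays with ratios of 0.57 and 0.61 read lower than the 2 with ratios of 1.28 and 1.29, whereas in LAD the 3 obese arrays with ratios between 1.26 and 1.47 also read below all lean arrays for SYNM and MYH11.

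In PVAT none of the 8 passed, nor did any other probe set (0%), and none of the 8 had an unadjusted limma p under 0.05 (background 0.798% lower). All 8 differences were negative, from -0.11 for PGM5 Ssc.28465.1.S1_at to -0.47 for CNN1 (SE 0.31, limma adjusted p = 0.999). MYH11 Ssc.10392.1.A1_at read 12.16, 12.37, 12.72, 12.97 and 13.28 in obese PVAT and 12.63, 13.13 and 13.53 as the lowest, median and highest in lean PVAT. Obese and lean arrays overlapped for all 9 probe sets, while 0.0768% of all probe sets had every obese array below and 0.126% every obese array above the lean ones. The spread of DES within either diet (SD 1.10 in obese and 1.10 in lean PVAT) was several times its diet difference of -0.14, whose 95% interval ran from -1.42 to 1.15. Within the 3 sacrifice dates the DES difference was -0.67, -1.96 and 1.07, and that of SYNM Ssc.23294.1.S1_at -0.81, -1.27 and 0.58, so neither kept its sign.

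The diet effect was then compared between tissues in the fit of all 6 groups. No member passed in any of the 3 comparisons, nor did any other probe set (0%), and none of the 8 had an unadjusted p under 0.05. For SYNM and PGM5 the diet effect in LAD minus that in TA lay between -0.13 and -0.01, with 95% intervals of -0.96 to 0.72 for SYNM Ssc.23294.1.S1_at and -0.69 to 0.66 for PGM5 Ssc.27727.2.S1_a_at. The diet effect in PVAT minus that in LAD lay between 0.36 and 0.51 for the same 5 probe sets, with every 95% interval including 0. For DES the diet effect in LAD minus that in TA was -1.25 (SE 0.73, limma adjusted p = 0.998), and -0.73 without the pig 57 TA array. The diet effects of the 3 tissues come from the same pigs.

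The members were then set against each other. Over all 32 arrays, which share tissue and pig, MYH11 (Ssc.10392.1.A1_at) and CNN1 had r of 0.98. The SYNM probe sets had r of 0.99 with each other and 0.93 to 0.95 with the 3 PGM5 probe sets, which had r of 0.99 with each other. MYH11 and CNN1 had r of 0.75 to 0.84 with the SYNM and PGM5 probe sets. DES had r between -0.39 and 0.11 with the 8 others. After the 6 group means were taken out, r was 0.90 between MYH11 Ssc.10392.1.A1_at and CNN1, 0.92 to 0.95 within PGM5 and 0.97 within SYNM, while DES had 0.49 and 0.54 with SYNM. The 2 MYH11 probe sets had r of 0.90 over all arrays and 0.41 after the group means were taken out.

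The genes whose levels most resembled each member were found by Pearson's r over the same 32 arrays. Those nearest MYH11 were CNN1, TPM2, KCNMB1, FLNA and TAGLN (r from 0.97 to 0.98), and those nearest CNN1 were TPM2, KCNMB1, MYH11, PDLIM7 and KCNMA1 (0.97 to 0.99). TPM2 is a tropomyosin of thin filaments, TAGLN (transgelin) an actin-binding protein of smooth muscle, and KCNMB1 and KCNMA1 encode the beta and alpha subunits of the large-conductance calcium-activated potassium channel. DES was nearest to SRL, CAP2, IGFBP2, LBH and KCNH2 (0.89 to 0.95). SRL (sarcalumenin) is a calcium-binding protein of the sarcoplasmic reticulum. SYNM was nearest to PGM5, MRPL11, NAV2, ZNRF3 and PCDH7 (0.91 to 0.94), and PGM5 to TES, ZNRF3, MANBAL, SCUBE3 and SRC (0.95 to 0.96). TES (testin) is a focal adhesion protein and SRC a tyrosine kinase active at adhesions.

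After the group means were taken out, so that only differences between pigs of a group were left, the nearest genes of MYH11 were TAGLN, CNN1, KCNMB1, CSRP1 and TPM2 (0.88 to 0.92) and those of CNN1 were TPM2, KCNMB1, MYH11, TAGLN and RASL12 (0.87 to 0.92). SYNM was then nearest to SH3BGR, PCDH7, DMPK, ATP2A2 and PYGB (0.83 to 0.88). ATP2A2 is the calcium pump of the sarcoplasmic reticulum of heart and slow muscle. PGM5 was nearest to SYNPO2, VCL, NTF3, OSR1 and CAMK2G (0.82 to 0.85), of which VCL (vinculin) is a plaque protein and SYNPO2 an actin-bundling protein of muscle. DES was nearest to QRSL1, CAP2, SYNGR2, SLC20A2 and PTDSS1 (0.83 to 0.86). The pig 57 TA array is among these arrays.

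Related genes of the same machinery were counted for context. Their comparisons with TA include the pig 57 TA array and are not given without it. Its mean of 5 other smooth muscle markers was 12.18, against 13.02 to 13.49 on the other TA arrays. Of 10 tested genes of the contractile apparatus other than the members, 3 were higher and 0 lower in LAD than in TA, against 14.4% of all tested probe sets that were higher and 10.1% lower: TAGLN by 0.43, TPM1 by 0.28 and CNN3 by 0.26 (limma adjusted p = 0.0495, 0.0309 and 0.0490). Of 14 tested genes of contraction signalling, 3 were higher and 0 lower in LAD, with CACNA1C, the pore subunit of the L-type calcium channel, at 0.89. Of 18 tested filament and dense body partners, 5 were higher and 1 lower, among them HSPB7 at 1.32, the desmin chaperone CRYAB at 0.98 and CSRP2 at -0.74. Of 23 tested plaque and dystrophin complex genes, 7 were higher and 2 lower, with SGCD, a sarcoglycan, at 1.18 and UTRN (utrophin) at 0.83.

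Of 12 tested regulators of the smooth muscle programme, 1 was higher and 1 lower in LAD than in TA: NOTCH3, a receptor of mural cells, at 1.46 and TEAD1, a transcription factor of the Hippo pathway, at -0.88. Several of these counts lie near the background shares. The median over all 82 tested genes of these lists was 0.17, against 0.01 over all tested probe sets. Of 5 tested paralogs, 1 passed: PGM1, the enzymatic phosphoglucomutase, was lower in LAD, at -0.47 (limma adjusted p = 0.00107).

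In PVAT relative to LAD, 64 of those 82 genes were lower (background 32.4%) and 7 higher (background 24.2%), with a median of -0.92. Among those that fell were KCNMA1 at -3.00, PDLIM7 at -2.85, PPP1R14A, the inhibitor of myosin phosphatase, at -2.73, LPP, a plaque protein, at -2.44, NOTCH3 at -2.22 and MYOCD, a co-activator of smooth muscle genes, at -2.16. Of the paralogs, the non-muscle myosin heavy chain genes MYH10 and MYH9 fell, at -1.62 and -0.67, whereas PGM1 and MYH14 rose by 0.41 and 0.32. Relative to TA, 54 of the 82 were lower in PVAT (background 32.9%) and 7 higher (background 26.9%), with a median of -0.72. Among these were KCNMA1 at -2.99, PDLIM7 at -2.77, ACTG2, the gamma smooth muscle actin, at -2.16, LPP at -2.14 and MYOCD at -2.01, and on the higher side UTRN at 1.4995.

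For diet, none of the 82 genes passed in any tissue. In obese LAD 70 had a negative and 12 a positive difference, with a median of -0.14 against -0.06 over all tested probe sets, and 19 were lower at an unadjusted limma p under 0.05 (background 11.7%). In obese PVAT 47 were negative and 35 positive (median -0.02), and in obese TA 68 were negative and 14 positive (median -0.35, against -0.03 over all tested probe sets). Without the pig 57 array 57 were negative and 25 positive in obese TA (median -0.04, against -0.03). The median of the 8 members in the same comparisons was -0.51 in LAD, -0.20 in PVAT and -0.39 in TA, and -0.21 in TA without the pig 57 array.

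A probe set outside the rule, Ssc.13296.1.A1_at, is called NEFH in the authors' symbol file and DES in the platform annotation. It averaged 9.90 ± 1.31 in obese and 9.88 ± 2.23 in lean PVAT, 4.41 ± 2.00 in obese and 5.03 ± 1.93 in lean LAD, and 3.69 ± 0.39 in obese and 3.50 ± 0.23 in lean TA (SD, n = 5 to 6). Its order of tissues, with PVAT highest, was not that of the DES probe set Ssc.24.1.S1_at, which was highest in LAD. Which transcript it measures was not tested. Another probe set outside the rule, Ssc.2819.1.S1_at, is called MYOZ2 in the authors' symbol file and is listed under SYNM and MYOZ2 in the platform annotation. It averaged 12.02 in obese and 12.18 in lean LAD, with overlapping ranges of 11.31 to 12.62 and 11.42 to 13.03. In PVAT it averaged 11.86 in obese (8.74 to 13.55) and 11.04 in lean pigs (4.65 to 13.46). In TA it averaged 11.29 in obese and 12.96 in lean pigs. The pig 57 TA array read 5.26, against 12.34 to 13.45 on the other TA arrays. Its transcript was not tested either.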

How the data were processed

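The authors deposited 1 table of log2 expression values for 14327 probe sets on 32 Affymetrix porcine arrays, made with affy per the submitters' processing notes. Version, background correction and normalization are not given in the sources used here (array medians 8.32 to 8.56). Groups came from the titles and symbols from the authors' AnexDB file. The table held 0 columns of other samples, and all arrays share a single array date.

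Probe sets whose mean lay in the lowest 30% were left out, and 10029 were tested with limma 3.58.1 (R 4.3.3) and Benjamini-Hochberg adjustment over all of them: diet within each tissue, tissue and diet effect in a fit of all 6 groups. Exact permutation tests used scipy 1.17.1. On simulated data with true differences of 1 log2 unit, 81% were recovered for diet in LAD, 79% in PVAT and 69% in TA. The simulated noise was normal, independent between probe sets and of the same spread in all groups. Other simulated differences were of 2 log2 units. The member diet differences in LAD, from -0.07 to -0.75, were smaller than those simulated, so these shares do not give the power for them.

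All member probe sets are named, with up to 4 passing genes per related list by absolute difference and the 5 genes of highest r. Members and lists were chosen with earlier results of these data known, so their counts against background shares are not an independent test. Pig numbers in the titles pair the arrays, and same-pig deviations had median correlations of 0.261 (LAD and PVAT), 0.314 (LAD and TA) and 0.095 (PVAT and TA). Alternatives covered filter, normalization, array weights, variance prior, pig and sacrifice-date blocks, covariates, and pigs or arrays left out.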

Additional observations from a re-analysis of the deposited data

Results flagged for a closer look

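In 7 of the 54 combinations of probe set and group, the lowest or highest array lay far from the others relative to the range of its group (Dixon's test), where chance gives about 1 in 20. The obese TA array of pig 57 accounts for 4 of the 7, all as the lowest value. MYH11 (Ssc.10392.1.A1_at) was at 13.25 on it, against 14.17 to 14.35 on the other obese TA arrays. CNN1 was at 11.78 against 13.20 to 13.39. PGM5 was at 12.03 against 12.92 to 13.14 (Ssc.27727.1.S1_at) and at 11.13 against 12.35 to 12.61 (Ssc.28465.1.S1_at).

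The PVAT array of the same pig was the highest of its group for PGM5 (Ssc.27727.1.S1_at), at 11.69 against 11.11 to 11.20. The LAD array of lean pig 63 was the lowest of its group for MYH11 (Ssc.10392.1.A1_at), at 14.23 against 14.36 to 14.43, and for CNN1, at 12.92 against 13.43 to 13.66. That array had the highest heart muscle marker mean of the LAD arrays, 12.08, and the part of it in these values was not tested.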

How the results depend on the processing

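The counts of members that passed stayed at 6 (LAD against TA), 8 (PVAT against LAD), 8 (PVAT against TA) and 0 (each diet comparison and each difference of diet effects) when any pig was left out. They were the same with the pig as a random replicate block. The pig as a fixed block was fitted only for tissue and for differences of diet effects, and changed no call there. Diet within a tissue cannot be fitted with a fixed pig block, because each pig had a single diet. Array weights gave 2 passing probe sets for diet in LAD. The exact permutation test, unadjusted, gave 6 in LAD and 6 in TA, all lower, against 10.4% and 5.59% of all probe sets. The choice of members with earlier results known may account for part of that excess. Over all tested probe sets, array weights gave 116 calls against 4 for diet in LAD, 265 against 0 for diet in TA, 10 against 0 for the diet effect in PVAT minus TA, and 4139 against 2458 for LAD minus TA. The cause was not tested.

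Signs turned only for differences that did not pass. For diet in PVAT, DES was 0.43, SYNM Ssc.10920.1.S1_a_at 0.12 and SYNM Ssc.23294.1.S1_at 0.066 with the 28S/18S ratio as a covariate, and 0.22, 0.060 and 0.010 without arrays of ratio below 0.8, an alternative chosen after seeing the data. With array weights, PGM5 was 0.0063 (Ssc.27727.1.S1_at) and 0.030 (Ssc.28465.1.S1_at). For diet in TA with the heart marker covariate, MYH11 was 0.078, CNN1 0.18 and DES -0.014. For LAD minus TA with it, MYH11 was -0.014 and CNN1 -0.066, and DES in PVAT minus TA, at 0.52, no longer passed.

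For the diet effect in LAD minus TA, MYH11 was -0.062 and CNN1 -0.22 with array weights, and -0.0052 and -0.18 without the pig 57 TA array. PGM5 was 0.014 (Ssc.27727.1.S1_at), 0.069 (Ssc.28465.1.S1_at) and 0.17 (Ssc.27727.2.S1_a_at) without arrays of low ratio. For that in PVAT minus TA, CNN1 was 0.17 without arrays of low ratio, and SYNM -0.10 and -0.11 with array weights. The untested MYH11 Ssc.9452.1.S1_at moved with array weights to -0.49 (diet in TA), -0.32 (diet effect, LAD minus TA) and -0.35 (LAD minus TA).

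With 1 pig left out in turn, the diet effect in LAD minus TA ran from -0.14 to 0.235 (CNN1), -0.0058 to 0.28 (MYH11), -0.34 to 0.020, -0.34 to 0.091 and -0.31 to 0.25 (PGM5, in the same order), and -0.32 to 0.036 and -0.27 to 0.13 (SYNM). The diet effect in PVAT minus TA ran from -0.59 to 0.15 (CNN1), -0.50 to 0.028 (MYH11) and -0.053 to 0.36 (PGM5 Ssc.27727.1.S1_at), and that of DES in PVAT minus LAD from -0.18 to 0.65. Diet in PVAT ran from -0.49 to 0.26 (DES), -0.35 to 0.071 and -0.50 to 0.0078 (SYNM).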
